A study of Mus musculus with 4 samples.

Results

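The levels of 10 cytokine receptor genes were measured in T cells that infiltrated B16 melanoma tumors: Il2rb, Il2rg, Il7r, Il21r, Il4ra, Il18r1, Il18rap, Il12rb1, Il12rb2 and Il10ra. They are 10 of the 32285 genes of the expression tables and were listed by symbol, with earlier results of these data known. B16 is a transplantable mouse melanoma line, and the host mice carried loxP sites in Vsir (Vsir fl/fl), the gene of the inhibitory protein VISTA. The VISTA-KO group also carried CD4-Cre, which the paper used to remove Vsir from T cells. The WT group held Vsir fl/fl littermates without Cre. All mice received the DeltaV TRP2 peptide vaccine with the adjuvants CpG and R848 on day 3 and antibody against CTLA-4 on days 4 and 8, counted from tumor inoculation, and tumor T cells were taken on day 18 after treatment. Tumors of 5 to 6 mice per genotype by the methods, or 6 to 8 tumors by a legend, were pooled into 1 expression library and 1 T cell receptor library per genotype, so both groups carried the same vaccine and antibody and the spread between mice is unknown.

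Values are UMI counts summed over a group of cells and divided by all UMIs of that group, on the scale of CPM (counts per 1000000 UMIs), with exact 95% Poisson intervals that cover counting error only. With 1 library per genotype no test was possible, and no p-value is given for any difference. The filters of at least 600 genes and under 30% mitochondrial UMIs kept 10224 cells of WT and 9946 of VISTA-KO. CD8 cells had a UMI of Cd8a or Cd8b1 and none of Cd4 (5549 WT and 4350 VISTA-KO cells), conventional CD4 cells a UMI of Cd4 and none of Foxp3 (1768 and 3048), and regulatory cells UMIs of both (1528 and 1270), while 13.5% and 12.8% of the cells fell in no gate. T cell markers were at 3985 to 4654 CPM in WT and 3989.9 to 4599.6 CPM in VISTA-KO gates, so the T cell label held, but the gates were not pure. A Cd8a or Cd8b1 UMI was present in 52.0% of WT and 29.5% of VISTA-KO regulatory cells and in 32.7% and 20.9% of conventional CD4 cells, and the median depth of the WT regulatory cells, 8838.5 UMIs, stood above that of all other gates (4105.5 to 5939). Siglech, a gene of plasmacytoid dendritic cells, was at 212 and 87.7 CPM in WT and VISTA-KO conventional CD4 cells, and the melanoma genes Pmel, Mlana and Tyrp1 summed to 8.15 and 143 CPM in CD8 cells, 140.3 and 9.98 CPM in conventional CD4 cells, and 3.44 and 146 CPM in regulatory cells. Strict gates are therefore given beside the results they move. They also asked for a T cell gene and for no complement, Siglech or Cd79a UMI. CD8 cells had to lack a Foxp3 UMI, and CD4+ cells a Cd8 UMI. They set no rule on the melanoma genes. Vsir itself was at 112 and 111 CPM in WT and VISTA-KO CD8 cells, which checks nothing about the labels because reads from one end of a transcript can lie outside the deleted part, and 144 cell barcodes occurred in both libraries.

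Cytokine receptors of T cells work as pairs or triplets of chains. Il2rg encodes the common gamma chain, which joins Il2rb in the receptors for IL-2 and IL-15, Il7r in the receptor for IL-7, Il21r in the receptor for IL-21 and Il4ra in the receptor for IL-4, and these receptors signal through JAK kinases and STAT factors. IL-7 maintains naive and memory T cells, whereas IL-2 and IL-15 drive the growth and survival of activated T cells. Il18r1 and Il18rap encode the ligand-binding and accessory chains of the IL-18 receptor, which uses the adaptor MyD88, and Il12rb1 and Il12rb2 encode the chains of the IL-12 receptor, with Il12rb1 shared by the IL-23 receptor. IL-12 and IL-18 together induce interferon-γ. Il10ra encodes the ligand-binding chain of the receptor for IL-10, a cytokine with mostly dampening effects on myeloid cells and direct effects on CD8+ T cells.

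The genes lie on 7 chromosomes of GRCm38, at the RefSeq gene positions: Il2rb (ENSMUSG00000068227, chr15:78479256-78511621), Il2rg (ENSMUSG00000031304, chrX:101264385-101268255), Il7r (ENSMUSG00000003882, chr15:9506159-9529941), Il21r (ENSMUSG00000030745, chr7:125603252-125634397), Il4ra (ENSMUSG00000030748, chr7:125552271-125579474), Il18r1 (ENSMUSG00000026070, chr1:40465552-40500854), Il18rap (ENSMUSG00000026068, chr1:40515362-40551707), Il12rb1 (ENSMUSG00000000791, chr8:70808360-70823542), Il12rb2 (ENSMUSG00000018341, chr6:67285986-67376293) and Il10ra (ENSMUSG00000032089, chr9:45253837-45269149). The closest pairs were Il18r1 and Il18rap on chromosome 1, 14.5 kb apart, and Il4ra and Il21r on chromosome 7, 23.8 kb apart. Promoter windows were matched for 7 of the 10 genes in the RefSeq table of build GRCm38.p6.

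The 250 bases before the start site are shown for Il7r, which differed most with clonotype size, and for Il18r1, Il18rap and Il12rb2, whose levels varied together over clonotypes. Each is written 5′ to 3′ on the strand of the gene, and capitals mark a match to TTCNNNGAA, the palindromic GAS motif read by STAT factors. The windows are chr15:9529877-9530126 (minus strand), chr1:40465302-40465551 (plus strand, the first of 3 start sites listed), chr1:40515112-40515361 (plus strand) and chr6:67376189-67376438 (minus strand).
Il7r: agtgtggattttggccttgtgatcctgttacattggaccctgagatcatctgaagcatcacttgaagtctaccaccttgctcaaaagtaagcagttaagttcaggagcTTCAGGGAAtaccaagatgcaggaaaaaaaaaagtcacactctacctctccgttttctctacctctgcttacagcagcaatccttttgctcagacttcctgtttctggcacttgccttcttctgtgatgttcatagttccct
Il18r1: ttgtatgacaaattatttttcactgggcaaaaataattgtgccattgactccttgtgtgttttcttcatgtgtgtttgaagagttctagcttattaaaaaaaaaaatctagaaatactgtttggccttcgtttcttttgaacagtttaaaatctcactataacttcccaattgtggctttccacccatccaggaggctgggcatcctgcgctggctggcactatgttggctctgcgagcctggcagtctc
Il18rap: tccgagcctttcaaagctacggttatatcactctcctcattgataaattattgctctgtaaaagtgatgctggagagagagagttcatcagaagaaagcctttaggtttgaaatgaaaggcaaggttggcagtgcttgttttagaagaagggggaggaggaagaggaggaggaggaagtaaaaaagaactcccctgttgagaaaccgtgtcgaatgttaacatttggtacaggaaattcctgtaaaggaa
Il12rb2: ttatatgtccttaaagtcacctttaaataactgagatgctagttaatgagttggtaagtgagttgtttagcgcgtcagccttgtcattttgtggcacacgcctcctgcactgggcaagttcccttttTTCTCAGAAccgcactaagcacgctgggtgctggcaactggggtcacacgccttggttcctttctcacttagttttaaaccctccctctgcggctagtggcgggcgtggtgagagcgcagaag
The match began 142 bases before the start site of Il7r (TTCAGGGAA) and 123 bases before that of Il12rb2 (TTCTCAGAA), and 8.30% of the 32851 promoters, each searched over 300 bases up to 50 bases past the start site, held one. Of the other motifs searched on both strands, the FOXO motif GTAAACA (3.65% of all promoters), the RUNX motif TGTGGT (16.8%), the T-box motif TCACACC (3.98%), the TCF motif CTTTGAT (3.73%) and the ETS motif CCGGAAG (8.86%), none lay in these 4 upstream stretches. Of the other start sites of Il18r1, not shown, the third had GAS matches 219 and 152 bases before it (TTCTGGGAA and TTCCCAGAA), and the second a RUNX match 21 bases past it. A RUNX match lay 3 bases past the start site of Il7r and another 31 bases past that of Il18rap. A match is a description of the letters and shows no binding.

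Among the chains that bind the common gamma chain, Il7r differed most between the cell kinds and was highest in conventional CD4 cells of both libraries. The level of Il7r was 109 and 134 CPM in WT and VISTA-KO CD8 cells, 262 and 306 CPM in conventional CD4 cells, and 189.5 and 178 CPM in regulatory cells. Conventional CD4 cells stood highest, regulatory cells came next and CD8 cells were lowest, with WT and VISTA-KO regulatory cells not separated by their intervals. The common gamma chain Il2rg was at 711 and 708 CPM in WT and VISTA-KO CD8 cells, 796 and 888 CPM in conventional CD4 cells, and 965 and 1159.9 CPM in regulatory cells, so regulatory cells led in each library and the CD8 cells of both libraries did not separate. Il2rb, the shared signaling chain for IL-2 and IL-15, was at 570.2 and 577 CPM in WT and VISTA-KO CD8 cells, 514 and 528 CPM in conventional CD4 cells, and 631 and 707 CPM in regulatory cells. Regulatory cells were highest again, by a smaller margin, and conventional CD4 cells lowest.

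Il4ra, the IL-4 binding chain, was at 29.4 and 29.6 CPM in WT and VISTA-KO CD8 cells, 38.9 and 45.6 CPM in conventional CD4 cells, and 39.8 and 66.1 CPM in regulatory cells. VISTA-KO regulatory cells stood alone at the top, and WT regulatory and WT conventional CD4 cells did not separate. The IL-21 receptor gene Il21r varied least, at 174 and 198 CPM in WT and VISTA-KO CD8 cells, 165 and 175 CPM in conventional CD4 cells, and 166 and 219 CPM in regulatory cells. VISTA-KO regulatory cells led, VISTA-KO CD8 cells followed, and the other 4 groups each overlapped their neighbor in the order.

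**Figure D1:**
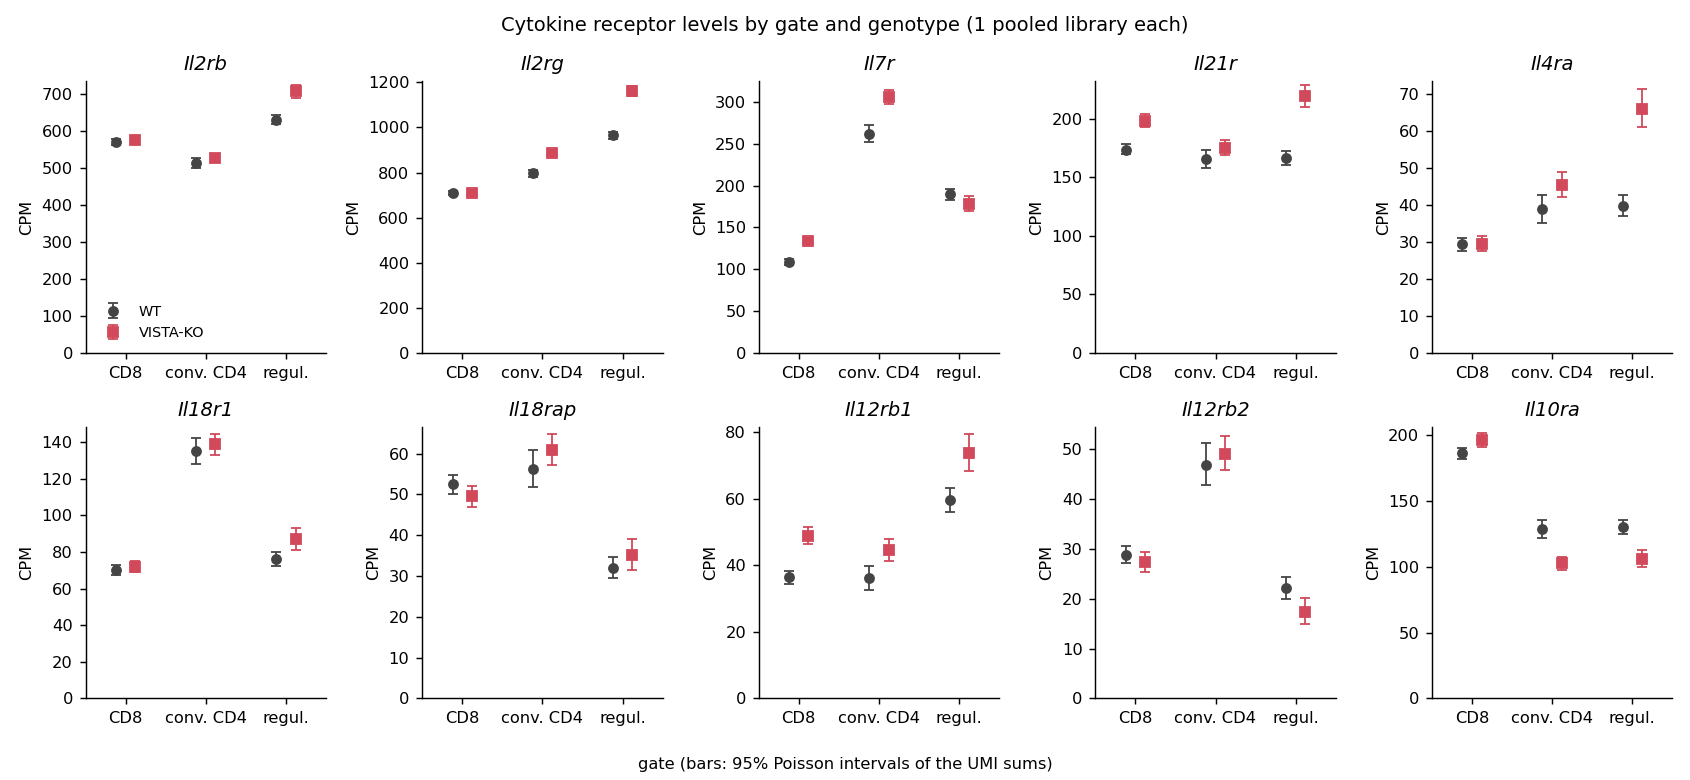
Levels of the 10 genes in CPM (y axes, each from 0 on its own scale) in CD8, conventional CD4 and regulatory cells (x axis) of the WT (circles) and VISTA-KO (squares) libraries, with 95% Poisson intervals as bars. Il7r, Il18r1 and Il12rb2 peak in conventional CD4 cells, Il2rb, Il2rg and Il12rb1 in regulatory cells and Il10ra in CD8 cells of both libraries.

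Il18r1 was highest in conventional CD4 cells of both libraries, and Il18rap in those of VISTA-KO, with the intervals of WT conventional CD4 and WT CD8 cells overlapping for Il18rap. Il18r1 was at 70.3 and 72.0 CPM in WT and VISTA-KO CD8 cells, 135 and 139 CPM in conventional CD4 cells, and 76.1 and 86.9 CPM in regulatory cells, and Il18rap was at 52.4 and 49.5 CPM in WT and VISTA-KO CD8 cells, 56.1 and 60.9 CPM in conventional CD4 cells, and 32.0 and 35.1 CPM in regulatory cells. Il18rap was lowest in regulatory cells, whereas for Il18r1 the intervals of WT regulatory cells and of the CD8 cells of both libraries overlapped in turn, and without dividing cells the log2 ratio of regulatory over CD8 cells in VISTA-KO was -0.00497, against 0.26 with all cells. The IL-12 receptor chains ran in opposite orders. Il12rb1 was at 36.4 and 48.8 CPM in WT and VISTA-KO CD8 cells, 36.1 and 44.5 CPM in conventional CD4 cells, and 59.6 and 73.7 CPM in regulatory cells, with regulatory cells highest. Il12rb2, the chain that confers IL-12 signaling, was at 28.8 and 27.3 CPM in WT and VISTA-KO CD8 cells, 46.8 and 49.1 CPM in conventional CD4 cells, and 22.1 and 17.4 CPM in regulatory cells, with conventional CD4 cells highest and regulatory cells lowest. Il10ra was at 186 and 196 CPM in WT and VISTA-KO CD8 cells, 129 and 103 CPM in conventional CD4 cells, and 130.04 and 106 CPM in regulatory cells, and the CD8 cells of both libraries stood above all CD4+ groups.

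The cell kinds were compared within each library by the ratio of CPM, and a gene was counted as apart when the log2 ratio after adding 5 CPM passed 2-fold. Both comparisons share the CD8 cells. Il7r was the only member past the fold for conventional CD4 over CD8 cells, with a ratio of 2.41 (2.29 to 2.53) for WT and 2.28 (2.18 to 2.38) for VISTA-KO, each with its 95% interval. Over all genes with at least 20 CPM in either group, 2.03% were higher and 0.314% lower past that fold in WT, and 1.66% and 1.47% in VISTA-KO. Il18r1 came close, at 1.92 and 1.93, and Il12rb2 was at 1.63 and 1.80. Without dividing cells, and without CD8 clonotypes of 100 or more cells, the VISTA-KO ratio of Il7r no longer passed the fold.

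For regulatory over CD8 cells no member passed 2-fold in WT, where 2.45% of all genes were higher and 0.858% lower. In VISTA-KO Il4ra alone did, at 2.23 (2.01 to 2.48), against 3.55% of all genes higher and 1.68% lower, and it no longer passed the fold without the largest CD8 clonotype of each library, at a log2 ratio of 0.97. The WT ratio of Il4ra was 1.35 (1.23 to 1.49). Il18rap and Il10ra were lower in regulatory than in CD8 cells in each library, with ratios of 0.610 and 0.710 for Il18rap and 0.698 and 0.540 for Il10ra.

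Strict gates, which kept 1132 and 2334 conventional CD4 and 709 and 852 regulatory cells of WT and VISTA-KO, widened the contrast between the cell kinds. WT conventional CD4 cells then held 356 CPM of Il7r, 187 CPM of Il18r1 and 88.3 CPM of Il10ra, and the VISTA-KO cells held 352, 163 and 76.9 CPM. WT CD8 cells held 105, 71.9 and 188 CPM of the same genes and VISTA-KO CD8 cells 138, 74.1 and 196 CPM. With these gates 3 members were 2-fold apart between conventional CD4 and CD8 cells in each library, Il7r and Il18r1 higher and Il10ra lower, where 2.81% of all genes were higher and 1.80% lower in WT and 2.36% and 2.31% in VISTA-KO. In WT regulatory cells Il7r was at 239 CPM, past 2-fold over CD8 cells, and Il18rap was at 23.9 CPM, below them by 2-fold, where 5.09% of all genes were higher and 2.75% lower.

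Between the genotypes, Il12rb1 was the only member past 1.2-fold in every gate, higher in VISTA-KO. It passed the fold in 2 of 6 alternatives in conventional CD4 cells and 3 of 6 in regulatory cells. Il2rb, Il21r, Il4ra and Il18r1 also had ratios above 1 in every gate, but under 1.2-fold in CD8 and conventional CD4 cells. In CD8 cells Il12rb1 went from 36.4 CPM in WT to 48.8 CPM in VISTA-KO, which is a ratio of 1.34 (1.24 to 1.45), and Il7r from 109 to 134 CPM, a ratio of 1.23 (1.18 to 1.29). These were 2 of 10 members higher by 1.2-fold and none was lower, against 3.29% of 6083 genes higher and 2.78% lower. The 7 ratios from 0.944 (Il18rap) to 1.05 (Il10ra) and that of Il21r, 1.14, stayed inside the fold. Without dividing cells, those with a UMI of Mki67 or Top2a, Il12rb1 was just under it, at a log2 ratio of 0.259 against 0.379 with all cells, where 1.2-fold is 0.263 on that scale, and without the largest clonotype of each library Il7r was at 0.2498 against 0.291.

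In conventional CD4 cells Il12rb1 was higher in VISTA-KO, 44.5 against 36.1 CPM, a ratio of 1.23 (1.09 to 1.40), and Il10ra was lower, 103 against 129 CPM, a ratio of 0.7995 (0.744 to 0.859). Over 6336 genes, 5.18% were higher and 8.54% lower past 1.2-fold, so 1 of 10 in either direction is near the background. With strict gates neither passed the fold, at 47.0 against 40.8 CPM for Il12rb1 and 76.9 against 88.3 CPM for Il10ra. Siglech-positive cells, which held 112 CPM of Il10ra in WT and 128 CPM in VISTA-KO, and CD8 RNA, 897 against 457 CPM of Cd8a and Cd8b1, both stood higher in the WT gate, and their part in the Il10ra difference was not tested.

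Regulatory cells showed the most members apart. Il4ra was at 66.1 CPM in VISTA-KO and 39.8 CPM in WT, a ratio of 1.66 (1.49 to 1.85), and Il21r at 219 and 166 CPM, a ratio of 1.32 (1.25 to 1.39). Il12rb1, with a ratio of 1.24 (1.12 to 1.36), and Il2rg, with 1.202 (1.17 to 1.23), were also higher in VISTA-KO, while Il12rb2, with 0.786 (0.653 to 0.944), and Il10ra, with 0.815 (0.757 to 0.878), were lower. Thus 4 members were higher and 2 lower, where 9.47% of 6281 genes were higher and 8.37% lower. The median log2 ratio of the members was 0.17, beside -0.01 over all genes.

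The WT regulatory cells were deeper and held more CD8 RNA, 857 CPM of Cd8a and Cd8b1 against 389 CPM in VISTA-KO, and less Foxp3, 485 against 610.4 CPM. With strict gates Il4ra was still higher in VISTA-KO, 75.2 against 47.5 CPM, as was Il21r, 241 against 174 CPM, and both passed the fold in each of the 6 alternatives run for them. Il2rg (1289.9 against 1161 CPM), Il12rb1 (86.8 against 71.8 CPM), Il12rb2 (17.4 against 19.2 CPM) and Il10ra (102 against 109 CPM) did not pass it with strict gates. Over all 6 alternatives Il2rg passed it in 2, Il12rb1 in 3, Il10ra in 4 and Il12rb2 in 5. Il7r passed it in 4, lower in VISTA-KO (strict gates, without doublets, without dividing cells and with each cell weighted equally), with log2 ratios down to -0.37 against -0.09 with all cells. With strict gates Il7r was at 189 CPM in VISTA-KO and 239 CPM in WT, and Il18rap passed the fold higher in VISTA-KO, at 31.3 against 23.9 CPM.

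**Figure D2:**
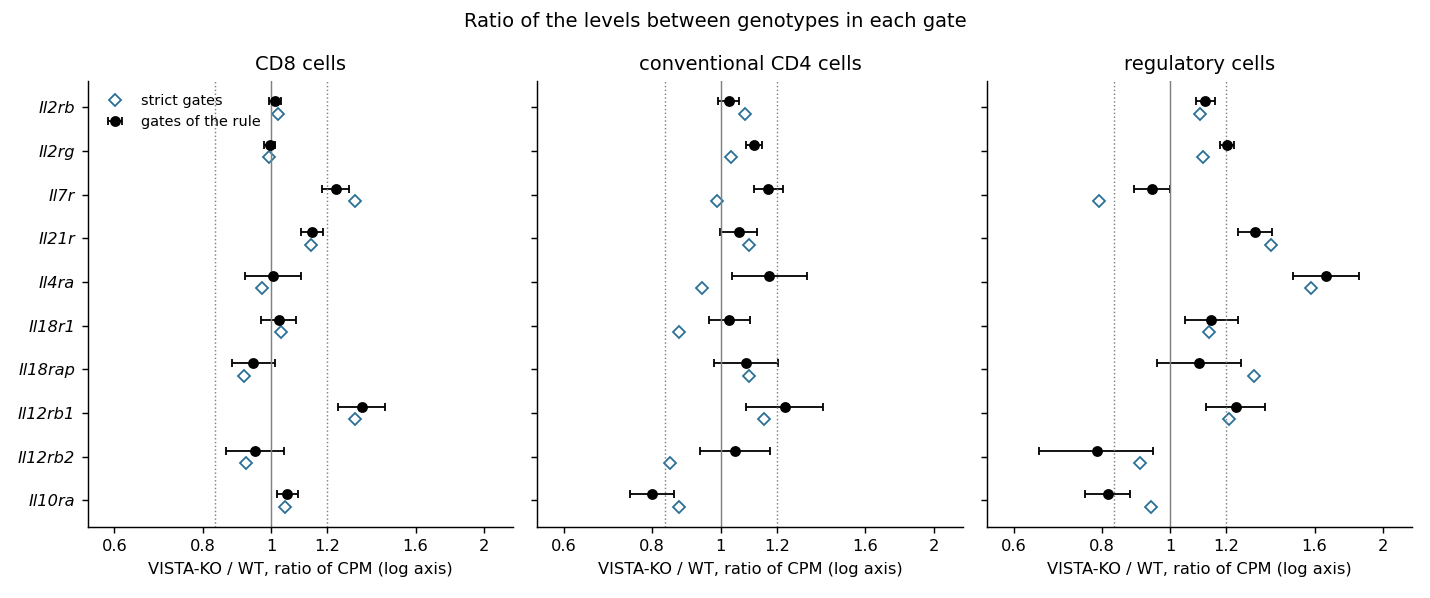
Ratio of CPM in VISTA-KO over WT (x axis, log scale) for each gene in CD8, conventional CD4 and regulatory cells, with the gates of the rule (filled circles, bars are 95% intervals from counting error) and with strict gates (open diamonds). The solid line marks a ratio of 1 and the dotted lines 1.2-fold in either direction. Il4ra and Il21r lie to the right of the fold in regulatory cells with both gates.

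Clonotypes, cells that shared the V gene and CDR3 of their leading alpha and beta chains, could be assigned to 4159 WT and 3459 VISTA-KO CD8 cells. Clonotypes of 1, 2 to 9, 10 to 99 and 100 or more cells held 894, 665, 1248 and 1352 WT cells and 1302, 1039, 680 and 438 VISTA-KO cells. The last class was 2 clonotypes in each library, of 1034 and 318 cells in WT and 291 and 147 cells in VISTA-KO, so it describes single clones. Il7r was the member that differed most with clonotype size. Its level in the 4 classes, from the smallest to the largest, was 301, 98.4, 24.2 and 30.3 CPM in WT and 266, 83.6, 46.6 and 9.69 CPM in VISTA-KO. Taking all clonotypes of 10 or more cells as expanded, Il7r was 11.2 (10.0 to 12.5) times higher in single-cell than in expanded clonotypes of WT and 8.78 (7.69 to 10.1) times in VISTA-KO.

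Il4ra followed the same direction, at 56.0, 26.5, 15.3 and 21.3 CPM in WT and 45.5, 22.0, 17.8 and 12.7 CPM in VISTA-KO, and was 3.11 (2.63 to 3.68) and 2.91 (2.37 to 3.60) times higher in single-cell clonotypes. Il10ra ran the other way, at 82.7, 213, 249 and 185 CPM in WT and 109, 177, 237 and 394 CPM in VISTA-KO, with expanded over single-cell ratios of 2.67 (2.41 to 2.96) and 2.81 (2.60 to 3.05). The level of Il10ra was lowest in single-cell clonotypes of both libraries and highest in the 10 to 99 class of WT and the largest clonotypes of VISTA-KO. Il2rb was at 459, 568, 753 and 423 CPM in WT and 469, 597, 744 and 656 CPM in VISTA-KO, so the 10 to 99 class was highest in both. Il2rg was at 826, 731, 598 and 781 CPM and 833, 713, 668 and 501 CPM, highest in single-cell clonotypes of both.

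In WT, 1 member was higher (Il10ra) and 2 lower (Il7r and Il4ra) past 1.5-fold in expanded clonotypes, against 4.85% of 6186 genes higher and 3.94% lower. In VISTA-KO, 2 were higher (Il10ra and Il12rb1, the latter 64.6 against 38.4 CPM) and 3 lower (Il7r, Il4ra and Il18r1), against 6.44% of 6192 genes higher and 5.14% lower. Il12rb1 was also higher in expanded clonotypes of WT, 39.8 against 26.9 CPM, as was Il18rap, 59.3 against 38.3 CPM. These 2 WT values stayed inside the fold but passed it in 4 and 5 of the 11 alternatives, strict gates among them. With strict gates 6.22% of all genes were higher and 3.76% lower in WT. In VISTA-KO Il2rb was higher in expanded clonotypes, 705 against 469 CPM, and Il12rb2 lower, 20.5 against 33.0 CPM. Both stayed just inside the fold, and passed it in 4 and 5 of the 11 alternatives. The log2 ratio of Il12rb2 ranged from -0.66 to 0.12 over them. In WT Il2rb was at 607 against 459 CPM and passed the fold in 2 of the 11. Il18rap was lower in expanded clonotypes of VISTA-KO, 38.9 against 45.6 CPM. Il18r1 was at 39.3 CPM in expanded and 98.9 CPM in single-cell clonotypes of VISTA-KO and at 65.9 and 76.7 CPM in WT. Without the clonotypes of 100 or more cells, and with clonotypes weighted equally, the VISTA-KO value of Il18r1 no longer passed the fold. Il12rb1 did not pass it in VISTA-KO without the largest clonotype, without those of 100 or more cells, and with expanded taken as 2 or more cells, at log2 ratios of 0.48, 0.56 and 0.50 against 0.68. Il7r, Il4ra and Il10ra kept their direction and passed the fold in both libraries under each of the 11 alternatives run for them.

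Other RNA also differed between the size classes. Foxp3 was at 78.1 and 33.1 CPM in WT and VISTA-KO single-cell clonotypes and at 3.44 and 2.31 CPM in expanded ones, and with Foxp3-positive cells removed by the strict gates the single-cell level of Il7r was 308 and 273 CPM in WT and VISTA-KO. The proliferation genes Mki67 and Top2a summed to 106 CPM in single-cell clonotypes and 145 CPM in the largest ones of WT, and to 129.9 and 511 CPM in VISTA-KO. The sum of melanoma genes was 400.3 CPM in the 2 to 9 class of VISTA-KO and 23.6 CPM in that of WT. The part of Foxp3-positive and dividing cells in the members' levels was not tested beyond the strict gates and the alternative without dividing cells. No alternative removed cells with melanoma RNA, so its part was not tested.

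**Figure D3:**
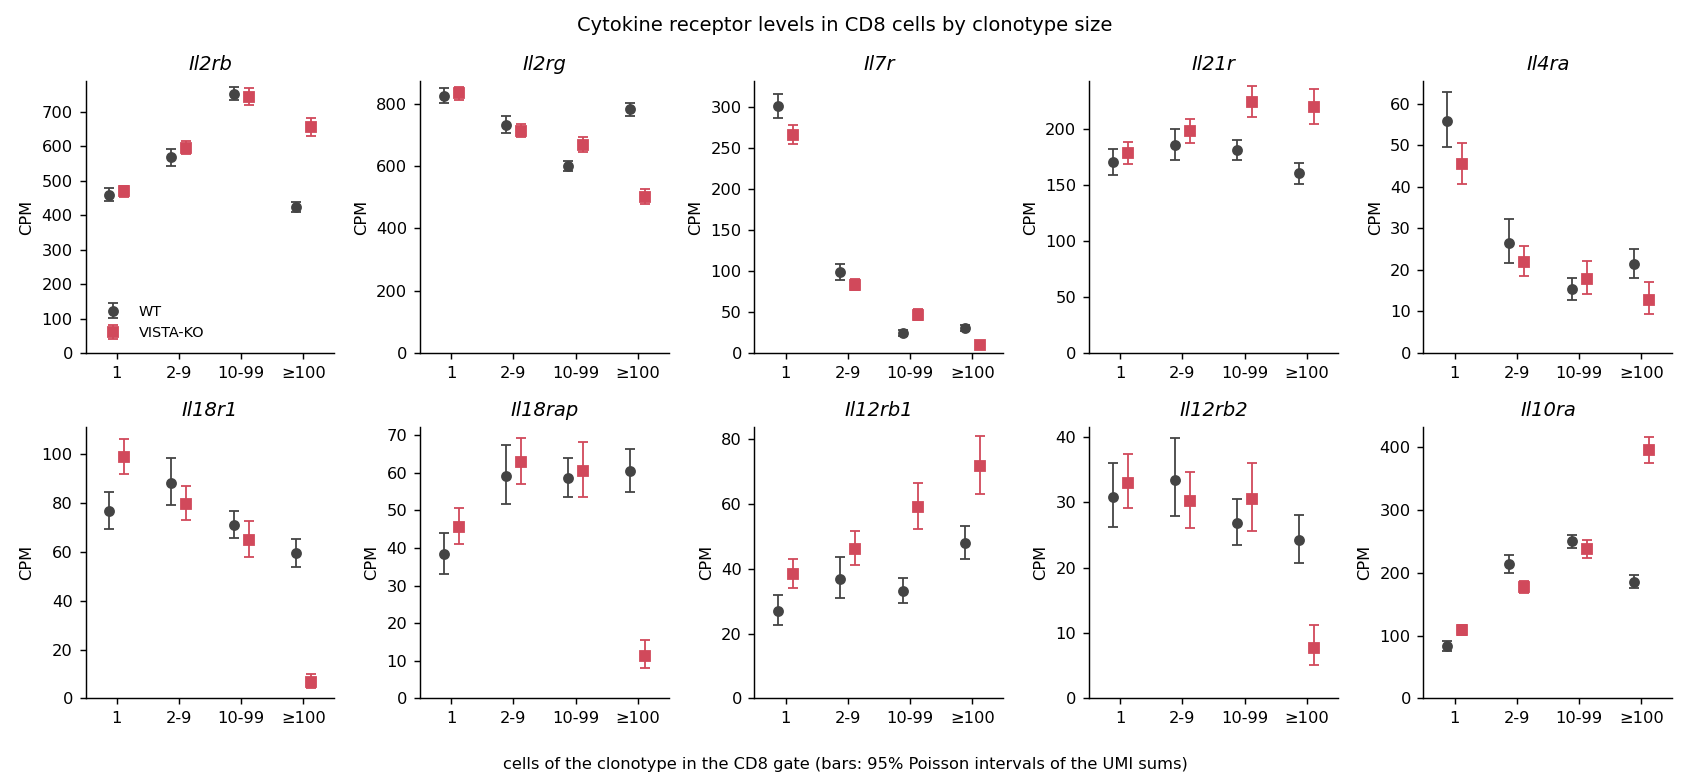
Levels of the 10 genes in CPM (y axes from 0) in CD8 cells by the number of cells of their clonotype (x axis) in WT (circles) and VISTA-KO (squares), with 95% Poisson intervals as bars. Il7r goes from 301 and 266 CPM to 30.3 and 9.69 CPM, and Il18r1, Il18rap and Il12rb2 are at 6.65, 11.4 and 7.75 CPM in the largest class of VISTA-KO.

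The genotypes were also set side by side within each size class. Il12rb1 was higher in VISTA-KO in all 4, with ratios of 1.42, 1.25, 1.78 and 1.49 from the smallest to the largest class. For Il7r the order changed. VISTA-KO over WT was 0.885 (0.828 to 0.946) for single-cell clonotypes and 0.849 (0.743 to 0.971) for 2 to 9 cells, 1.92 (1.58 to 2.34) for 10 to 99 cells and 0.320 (0.217 to 0.458) for the largest clonotypes, whereas over all CD8 cells it was 1.23. The single-cell class, where Il7r was highest, held 1302 of 3459 VISTA-KO and 894 of 4159 WT cells with a clonotype. The 1390 WT and 891 VISTA-KO CD8 cells with no clonotype were in none of these classes. They had Il7r at 138 and 166 CPM and held 1718 of the 4074 WT and 982 of the 3816 VISTA-KO Il7r UMIs of the gate. The part of each group in the ratio over all CD8 cells was not tested. Il21r was at ratios of 1.05, 1.07, 1.24 and 1.37, above 1 in all 4 classes but with intervals that included 1 in the 2 smaller ones. Il2rb and Il2rg stayed within 1.2-fold in the 3 smaller classes, with ratios from 0.987 to 1.05 for Il2rb and from 0.975 to 1.12 for Il2rg.

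The 2 largest clonotypes of VISTA-KO had little RNA for 3 receptor chains of IL-18 and IL-12. Il18r1 was at 10.2 CPM (6.44 to 15.2, 23 UMIs) and 0.743 CPM (0.0188 to 4.14, 1 UMI) in the first and second clonotype of VISTA-KO, and at 57.6 CPM (51.2 to 64.7) and 63.4 CPM (53.2 to 75.1) in those of WT. Il18rap was at 10.6 and 12.6 CPM in VISTA-KO and 71.2 and 34.8 CPM in WT, and Il12rb2 at 8.39 and 6.68 CPM against 29.0 and 12.7 CPM. The Il12rb2 interval of the second WT clonotype, 8.36 to 18.5 CPM, overlapped those of both VISTA-KO clonotypes, 5.05 to 13.1 and 3.06 to 12.7 CPM. Il10ra was higher in the VISTA-KO clonotypes, 372 and 432 CPM against 129 and 316 CPM. The VISTA-KO pair also carried more of the inhibitory receptor gene Havcr2, 149 and 255 CPM against 8.61 and 106 CPM. A clone and a genotype cannot be told apart in this class, since each library holds its own clones.

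Low levels of the IL-18 receptor chains and of Il12rb2 were not seen in VISTA-KO clonotypes alone. Among the 23 WT and 12 VISTA-KO clonotypes of at least 20 cells, Il18r1 ranged from 12.5 to 198 CPM with a median of 63.4 CPM in WT, and from 0.743 to 143 CPM with a median of 31.7 CPM in VISTA-KO, so the ranges overlapped over most of their length. Il18rap ranged from 11.3 to 224 CPM in WT and reached 164 CPM in VISTA-KO, where 1 clonotype had no UMI. Il12rb2 ranged from 0 to 152 CPM with a median of 21.3 CPM in WT, and from 0 to 107 CPM with a median of 8.57 CPM in VISTA-KO. Il10ra spanned 97.7 to 373 CPM in WT and 109.7 to 476 CPM in VISTA-KO. Il21r varied least, from 131 to 251 CPM in WT and 143 to 301 CPM in VISTA-KO. Il2rb ranged from 341 to 1170.0 CPM and 228 to 1267 CPM.

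**Figure D4:**
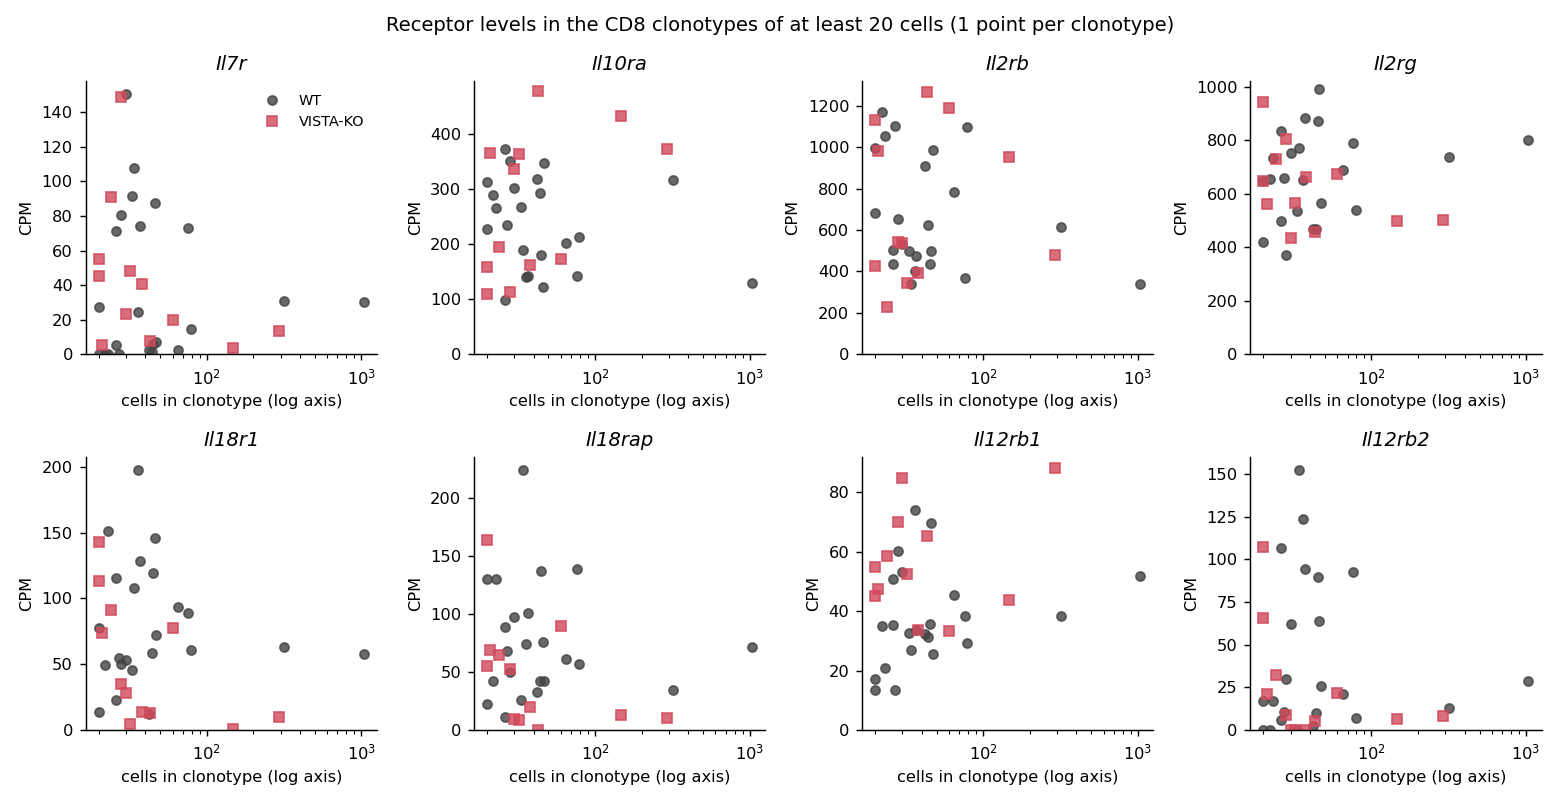
Level of 8 of the genes in CPM (y axes from 0) in each CD8 clonotype of at least 20 cells against its number of cells (x axis, log scale), for WT (circles) and VISTA-KO (squares), 1 point per clonotype. Clonotypes of similar size differ widely, with Il7r up to 150.4 and 149 CPM in WT and VISTA-KO among those of the smaller sizes.

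Over these clonotypes the IL-18 receptor chains and Il12rb2 varied together in each library. Pearson's r, given as a description over 23 WT and 12 VISTA-KO clonotypes that share a library and differ in depth, was 0.73 and 0.79 for Il18r1 with Il18rap, 0.75 and 0.79 for Il18r1 with Il12rb2, and 0.76 and 0.77 for Il18rap with Il12rb2. The chains of the IL-12 receptor did not pair in this way, with r of 0.40 and -0.19 for Il12rb1 with Il12rb2. Il2rg also went with Il18r1 (r 0.71 and 0.62), Il18rap (r 0.67 and 0.69) and Il12rb2 (r 0.65 and 0.57). Il2rg and Il10ra ran against each other, with r of -0.67 and -0.91. Il7r went with Tcf7, a transcription factor gene of naive and memory T cells (r 0.70 and 0.92), and Il2rb went against it (r -0.77 and -0.74). The WT clonotype with the highest Il18rap and Il12rb2, the 13th in size with 34 cells, had 224 and 152 CPM of them, 197 CPM of Tcf7 and 17.9 CPM of Pdcd1, which encodes PD-1. The WT clonotype with the highest Il2rb, the 21st with 22 cells, had 1170.0 CPM of Il2rb, 798 CPM of Pdcd1 and no UMI of Il7r, Il12rb2 or Tcf7.

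**Figure D5:**
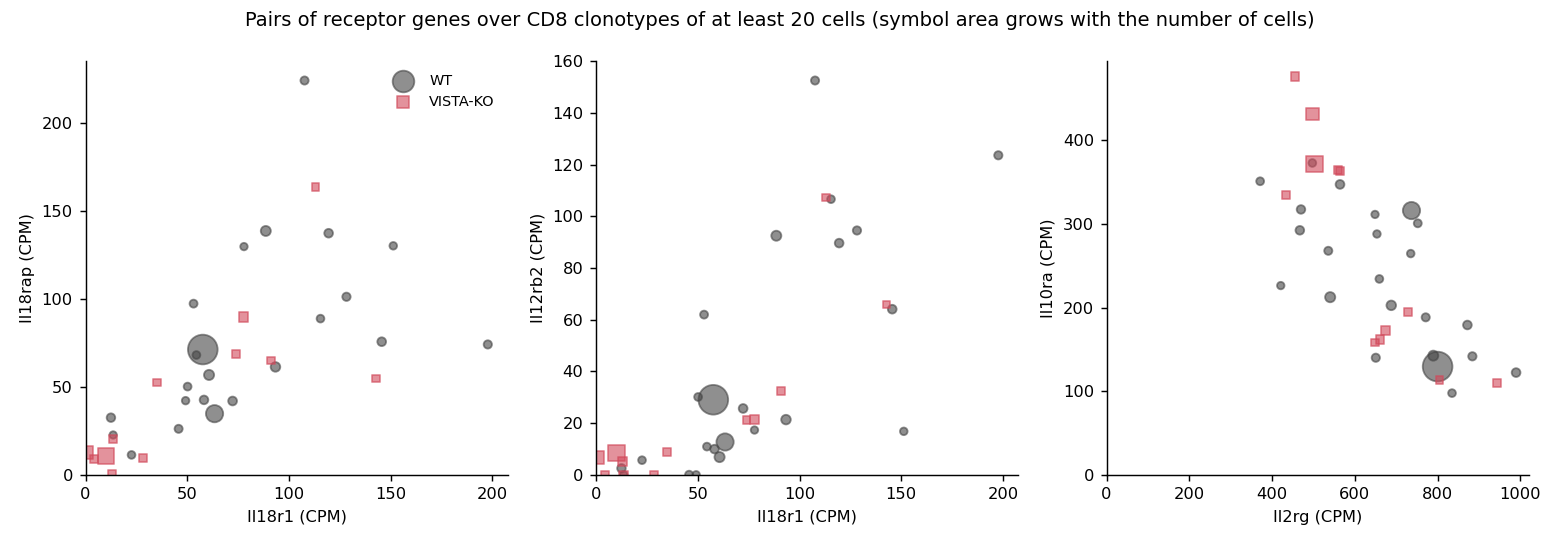
Il18rap against Il18r1, Il12rb2 against Il18r1, and Il10ra against Il2rg (all axes in CPM from 0) over CD8 clonotypes of at least 20 cells in WT (circles) and VISTA-KO (squares), with symbol area growing with the number of cells. The first 2 panels slope upward and the third downward in both libraries.

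Groups of CD8 cells chosen by UMIs of other genes differed in the same members, given as WT and VISTA-KO. Cells with a UMI of Havcr2 and Pdcd1 and none of Tcf7, markers of exhausted T cells, held 18.2 and 14.6 CPM of Il7r, 811 and 823 CPM of Il2rb and 258 and 314 CPM of Il10ra. Cells with Tcf7 and Pdcd1 but no Havcr2 UMI held 165 and 186 CPM of Il7r, 462 and 461 CPM of Il2rb and 152 and 133 CPM of Il10ra. Thus Il7r was higher and Il2rb and Il10ra lower in the second group of each library. Cells with a UMI of Cx3cr1, a marker of circulating effector cells, had the highest Il18rap of the 5 CD8 groups, 86.4 and 97.4 CPM, and cells with a UMI of Ccr7, a lymph node homing receptor of naive cells, the highest Il4ra, 56.7 and 48.0 CPM. Cells chosen by a UMI are deeper than the rest, so levels and not shares are given.

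In conventional CD4 cells with a UMI of Ccr7, Il7r was at 383 and 522 CPM (WT and VISTA-KO), and in those with Cxcr6, a marker of tissue effector cells, and no Ccr7 it was at 173 and 221 CPM. Il12rb2 ran the other way, at 31.0 and 14.6 CPM in the Ccr7 group and 55.1 and 65.1 CPM in the Cxcr6 group, as did Il12rb1, at 26.8 and 21.8 CPM and 42.1 and 53.5 CPM. Among regulatory cells, those with a UMI of Itgae, which encodes the integrin CD103, held 41.0 and 74.5 CPM of Il4ra, and those with a UMI of Mki67 held 32.1 and 52.9 CPM. Il4ra was higher in VISTA-KO in each of these groups, and also in the 38 WT and 80 VISTA-KO cells with Il1rl1 and no Itgae UMI, at 57.2 and 72.9 CPM, where the intervals overlapped.

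Pairs of chains were compared in single cells after each cell was thinned to 2000 UMIs, which left out 290 of 5549 WT and 186 of 4350 VISTA-KO CD8 cells. An Il18rap UMI was found in 12.2% of WT CD8 cells with an Il18r1 UMI and 9.85% of those without, and in 19.0% and 7.87% in VISTA-KO. In conventional CD4 cells these shares were 13.7% and 9.85% in WT and 14.6% and 9.72% in VISTA-KO. For the IL-12 receptor an Il12rb2 UMI was found in 7.33% of WT CD8 cells with an Il12rb1 UMI and 6.58% of those without, and in 3.85% and 5.25% in VISTA-KO. The same shares were 2.09% and 3.79% in WT and 6.82% and 2.49% in VISTA-KO regulatory cells. In conventional CD4 cells they were 14.3% and 8.75% in WT and 9.26% and 7.33% in VISTA-KO. The share was thus higher with an Il12rb1 UMI in conventional CD4 cells of both libraries, WT CD8 and VISTA-KO regulatory cells. It was lower in VISTA-KO CD8 and WT regulatory cells. These directions rest on few cells. Both UMIs were found in 0.532% of 5259 WT and 0.360% of 4164 VISTA-KO CD8 cells. In regulatory cells they were found together in 0.270% of 1483 WT and 0.984% of 1219 VISTA-KO cells. No interval was computed for the shares, so the directions are not separated from counting error. Il7r was found in cells with and without an Il2rb UMI at shares of 28.1% against 42.2% of WT and 30.9% against 43.0% of VISTA-KO conventional CD4 cells. A UMI of both chains was rare at this depth, since the chains of the IL-18 and IL-12 receptors have few UMIs.

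Free RNA was gauged in the 127 WT and 96 VISTA-KO cells with at least 2 UMIs of Siglech and none of Cd3d, Cd3e or Cd3g. Their median depths were 8309 and 8690 UMIs. Asking for no Cd3 UMI also leaves out Siglech cells that took up T cell RNA, so these levels can understate free RNA. In these cells Il2rb was at 2.86 and 1.17 CPM, and Il18rap had no UMI in either library. Il12rb1 was at 2.86 and 12.8 CPM in WT and VISTA-KO, and Il12rb2 at 11.4 (5.91 to 19.98) and 13.999 (7.23 to 24.5) CPM. The VISTA-KO interval of Il12rb2 overlapped those of VISTA-KO regulatory cells, 14.8 to 20.2 CPM, and of the largest VISTA-KO clonotypes, 5.15 to 11.2 CPM. Whether this Il12rb2 was free RNA, and its part in those low levels, was not tested. Il18r1 was at 1.91 CPM in WT and had no UMI of 857194 in VISTA-KO, with an interval up to 4.30 CPM. After thinning to 2000 UMIs Il18r1 was found in 13.1% (unthinned 29.5%) of WT and 12.99% (unthinned 29.2%) of VISTA-KO CD8 cells (median depths 4848 and 5224.5 UMIs) and in 0.787% (unthinned 1.57%) of WT Siglech cells. The Siglech cells did hold Il7r, at 335 and 290.5 CPM, and Il2rg, at 266 and 363 CPM. They also held Il21r at 161 and 169 CPM, Il4ra at 44.8 and 70.0 CPM and Il10ra at 112 and 128 CPM. For these genes they give no gauge of free RNA.

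Of 26 other cytokine receptor genes listed, 11 reached 20 CPM in CD8 cells and none passed 1.2-fold between the genotypes. In regulatory cells 6 of 15 other receptors were higher in VISTA-KO (Il2ra, Il6ra, Il1rl1, Ifngr1, Ifnar1 and Tgfbr1) and 1 lower (Il1r2, a decoy receptor for IL-1), with a median log2 ratio of 0.14, where 9.47% of all genes were higher and 8.37% lower. Il2ra, the alpha chain of the IL-2 receptor, was at 203 CPM in VISTA-KO and 133 CPM in WT regulatory cells. The lists were counted with the gates of the rule alone, so whether strict gates move these counts was not tested. In conventional CD4 cells 5 of 14 other receptors were higher and 1 lower, where 5.18% and 8.54% of all genes were. None of the measured IL-18 adaptor genes passed the fold in any gate. Of 11 ligand genes listed, none reached 20 CPM in CD8 cells and 1 did in each CD4+ gate, where Il10 was apart in regulatory cells, at 26.1 CPM in VISTA-KO and 14.7 CPM in WT.

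With clonotype size, 3 of 13 other receptors were lower in expanded than in single-cell clonotypes of WT (Il2ra, Il6ra and Il6st) and 4 of 13 in VISTA-KO (the same 3 and Il17ra), and none was higher, where 3.94% of all genes were lower in WT and 5.14% in VISTA-KO. Il6ra and Il6st encode the chains of the IL-6 receptor, and Il6ra was at 3.50 and 32.9 CPM in expanded and single-cell clonotypes of WT and 1.34 and 27.7 CPM in those of VISTA-KO. No measured IL-18 adaptor gene passed 1.5-fold in either library. The median log2 ratio of expanded over single-cell clonotypes was -0.09 in WT and -0.34 in VISTA-KO for the members, and -0.18 and -0.38 for the other receptors.

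The genes most like each member were taken as those with the highest correlation of log2(CPM + 5) over 12 points, the conventional CD4, regulatory and 4 CD8 size groups of both libraries, among 7017 genes. They were Cd2ap (r = 0.98) for Il7r, Bex3 (r = 0.94) for Il2rb, Rara (r = 0.98) for Il2rg, Ewsr1 (r = 0.88) for Il21r, Rapgef6 (r = 0.97) for Il4ra, Cd9 (r = 0.94) for Il18r1, Kansl2 (r = 0.90) for Il18rap, Tap1 (r = 0.96) for Il12rb1, Parp8 (r = 0.92) for Il12rb2 and Stard3nl (r = 0.97) for Il10ra. Il12rb1 was next most like Gbp7 (r = 0.93), an interferon-inducible GTPase gene, and Tap1 encodes a peptide transporter of antigen presentation. Parp3 was among the 3 closest genes of both Il18r1 and Il12rb2. The best match of Il21r was the weakest of the 10.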

How the data were processed

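The data were 1 single-cell expression library and 1 T cell receptor library per genotype. The authors aligned reads with Cell Ranger 5.0.0 to the mm10 (GRCm38) reference and deposited the UMI counts of each gene in each barcode, unnormalized, and a table of receptor contigs with UMI counts. The labels describe a 3′ kit and the methods a 5′ receptor kit. The authors' clusters were not used here. Counts were summed per library and gate in Python 3.11.15 with numpy 2.4.6, scipy 1.17.1 and pandas 2.3.3, scaled to CPM, and compared by log2 ratios after adding 5 CPM, with counts of genes past 1.2-fold (genotypes), 2-fold (cell kinds) or 1.5-fold (clonotype size) over genes of at least 20 CPM in either group. Ratio intervals are exact conditional intervals of 2 Poisson counts. The UMIs per gate ran from 9620300 to 37431872, which sets their width. A clonotype needed both chains. Doublets were kept, and cells with 2 or more beta chains or in the top 5% of UMIs (907 WT and 1010 VISTA-KO) were left out in an alternative. Alternatives covered gates, doublets, dividing cells, weighting, pseudocount and clonotype rules. The ratio scripts were tested on simulated data. The members, lists and folds were chosen with earlier results of these data known. A list of signaling genes is not reported here. Named genes were the 10 members, listed pathway genes past the fold, and the 3 genes most like each member.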

Additional observations from a re-analysis of the deposited data

Results flagged for a closer look

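For 3 members the difference between genotypes passed 1.2-fold in opposite directions in CD8 clonotypes of different size, and this was not tested, since each class is 1 group of cells per library. The share of all genes that did the same was not counted. In clonotypes of 100 or more cells 18.2% of all genes were higher and 21.3% lower, and all 10 members passed the fold. In the 3 smaller classes, from the smallest, these shares were 7.89% and 5.26%, 6.97% and 7.11%, and 6.55% and 7.92%. The log2 ratio of VISTA-KO over WT for Il7r was 0.82 in clonotypes of 10 to 99 cells and -1.27 in those of 100 or more. For Il18r1 it was 0.35 in single-cell clonotypes and -2.47 in the largest. Il10ra had a log2 ratio of 0.38 in single-cell clonotypes, -0.26 in those of 2 to 9 cells and 1.07 in the largest, which are 2 clones per library.

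Cells outside the gates also carried receptor RNA. In the 67 WT and 146 VISTA-KO cells with a UMI of Trdc, which encodes the constant region of the delta chain of gamma-delta T cells, and in no gate, Il7r was at 1028 and 679 CPM and Il12rb1 at 105 and 162 CPM, above the intervals of every gate of the same library. Il10ra had no UMI among 286837 in the WT cells, with an interval up to 12.9 CPM, and was at 23.3 CPM in the VISTA-KO cells. Whether Vsir was deleted in these Trdc-positive cells was not tested.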

How the results depend on the processing

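Each alternative changed 1 rule, although strict gates and the doublet rule each join several conditions. Of 740 log2 ratios of single members recomputed, 526 moved by no more than the mean distance from the value to the bounds of its interval, 214 moved by more and 0 of those past the fold changed direction. The counts of members past the fold that moved by more than 1.5 times were as follows, and the cause was not tested. The shares of all genes past the fold under the same alternative are given after each set of counts. With strict gates the counts were 0 in place of 2 between genotypes in conventional CD4 cells, 2 in place of 0 for WT regulatory against CD8 cells, 3 in place of 1 for conventional CD4 against CD8 cells in either library, and 5 in place of 3 for WT clonotype size. Of all genes, 5.05% were higher and 9.84% lower in the first. In the others these shares were 5.09% and 2.75%, 2.81% and 1.80% (WT), 2.36% and 2.31% (VISTA-KO), and 6.22% and 3.76%. Without doublets the counts were 1, 2 and 5 in place of 2, 1 and 3 between genotypes in conventional CD4 cells, for VISTA-KO conventional CD4 against CD8 cells and for WT clonotype size. The shares of all genes higher and lower were 5.17% and 9.15%, 1.65% and 1.06%, and 5.59% and 4.41%. Without dividing cells the counts were 1 in place of 2 between genotypes in CD8 cells, 0 in place of 2 in conventional CD4 cells, 0 in place of 1 for VISTA-KO conventional CD4 against CD8 cells, and 5 in place of 3 for WT clonotype size. The shares of all genes higher and lower were 3.72% and 4.07%, 5.17% and 11.4%, 1.45% and 0.986%, and 5.48% and 4.45%. With each cell weighted equally the count was 1 in place of 2 between genotypes in conventional CD4 cells. It was 1 in place of 0 for WT regulatory against CD8 cells and 5 in place of 3 for WT clonotype size. For conventional CD4 against CD8 cells it was 2 in place of 1 in either library. Of all genes, 4.5% were higher and 9.73% lower in the first. In the others these shares were 3.82% and 1.84%, 4.47% and 4.01%, 2.15% and 0.821% (WT), and 1.41% and 1.2% (VISTA-KO). Without the largest clonotype of each library they were 1 in place of 2 between genotypes in CD8 cells and 0 in place of 1 for VISTA-KO regulatory against CD8 cells. Without clonotypes of 100 or more cells, an alternative chosen after seeing the data, these counts were also 1 and 0, and VISTA-KO conventional CD4 against CD8 cells gave 0 in place of 1. Within classes of clonotype size, also added after seeing the data, 4 members were apart between genotypes in single-cell clonotypes and all 10 in those of 100 or more cells, against 7.89% of all genes higher and 5.26% lower in the first and 18.2% and 21.3% in the second. Smaller moves were 4 or 5 in place of 6 between genotypes in regulatory cells (strict gates and without doublets, or each cell weighted equally), with other members called, 4 to 7 in place of 5 for VISTA-KO clonotype size, and 4 in place of 3 for WT clonotype size with a pseudocount of 1 CPM and without the largest clonotype or those of 100 or more cells. For the regulatory cells, 11.6%, 9.28% and 8.97% of all genes were higher in these alternatives and 11.8%, 9.40% and 8.78% lower. For VISTA-KO clonotype size the shares ran from 3.38% to 7.15% higher and from 3.15% to 5.99% lower. For WT clonotype size they were 5.75%, 6.64% and 7.04% higher and 4.59%, 4.95% and 5.10% lower.

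The number of all genes 1.2-fold apart between genotypes depended on the filter. It was 369 in CD8, 869 in conventional CD4 and 1121 in regulatory cells at 20 CPM, 675, 1606 and 1877 at 5 CPM, and 855, 1989 and 2255 with no filter. No paired analysis was possible because each genotype is 1 pooled library. The intervals cover counting error only, so the spread between mice, tumors and libraries is not in them. Levels of Il4ra, Il12rb1 and Il12rb2 in single clonotypes rest on few UMIs, as do many of those of Il7r, Il18r1 and Il18rap. Free RNA was gauged only in Siglech-positive cells without a Cd3 UMI, which can understate it.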
